A study of Mus musculus with 6 samples.

Results

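The 10 genes described here were Snai1, Snai2, Zeb1, Zeb2 and Twist1, which encode transcription factors of the epithelial-mesenchymal transition (EMT), Tgfb1, Tgfb2 and Tgfb3, which encode the TGF-β ligands, and Mmp2 and Mmp14, which encode metalloproteinases. They were chosen by name, each through the single-gene probe set with the highest mean, and all 10 were measured among 19937 genes. Levels came from 6 one-colour Affymetrix arrays of total RNA from a single V6.5 mouse embryonic stem cell line. The line carried a biotin and 3xFLAG tag knocked into Ctnnb1, the gene of β-catenin, and expressed the biotin ligase BirA, and cells were maintained in serum with LIF on feeder cells from DR4 mice. For 24 h, cells of 3 arrays received 3 µM CHIR99021, which inhibits GSK3 and so stabilises β-catenin, and cells of the other 3 received the Wnt pathway inhibitor XAV939, which lowers β-catenin, at 3 µM in the sample labels and 1 µM in the treatment protocol. Both groups shared the line, the medium and the feeders. No untreated arrays were analysed here, so a difference belongs to neither compound alone. Nothing in the labels tells whether the replicates were separate cultures, and p-values measure only the spread between these arrays, which may be technical.

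In EMT, cells lose E-cadherin junctions and gain a motile, mesenchymal form, as epiblast cells do when they enter the primitive streak. Snail (Snai1), Slug (Snai2), ZEB1, ZEB2 and TWIST1 are the factors best known for driving it, and the first 4 bind E-box motifs in the E-cadherin gene and repress it. TGF-β ligands are secreted in a latent form, signal through type II and type I receptor kinases to SMAD2 and SMAD3, and induce several of these factors in many epithelia. MMP14, a membrane-anchored protease, activates secreted proMMP2 together with TIMP2, and MMP2 degrades gelatin and type IV collagen. GSK3 is also known to mark Snail protein for degradation, a step that transcript arrays do not measure.

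Promoter sequences, from RefSeq on GRCm38.p6, are shown for the 2 ligand genes that rose and for Snai1, whose window held an E-box. Each is the 250 bases before the annotated start, 5′ to 3′ on the strand of the gene. Capitals mark the 5 GC boxes (GGGCGG or CCGCCC) of Tgfb1, at chr7:25686752-25687001 on the plus strand, and the E-box (CAGGTG or CACCTG) of Snai1, at chr2:167537945-167538194 on the plus strand. The Tgfb2 window, at chr1:186705990-186706239 on the minus strand, held neither motif.
Tgfb1: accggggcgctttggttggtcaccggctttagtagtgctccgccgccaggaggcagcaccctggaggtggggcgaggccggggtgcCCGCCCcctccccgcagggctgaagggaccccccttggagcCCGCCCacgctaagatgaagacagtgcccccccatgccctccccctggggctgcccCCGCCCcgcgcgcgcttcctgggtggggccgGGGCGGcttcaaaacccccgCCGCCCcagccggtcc
Tgfb2: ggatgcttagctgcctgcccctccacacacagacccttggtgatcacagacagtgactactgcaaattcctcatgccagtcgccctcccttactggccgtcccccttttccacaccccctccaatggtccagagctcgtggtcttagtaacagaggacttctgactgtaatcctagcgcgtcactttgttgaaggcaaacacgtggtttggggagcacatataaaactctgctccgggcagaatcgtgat
Snai1: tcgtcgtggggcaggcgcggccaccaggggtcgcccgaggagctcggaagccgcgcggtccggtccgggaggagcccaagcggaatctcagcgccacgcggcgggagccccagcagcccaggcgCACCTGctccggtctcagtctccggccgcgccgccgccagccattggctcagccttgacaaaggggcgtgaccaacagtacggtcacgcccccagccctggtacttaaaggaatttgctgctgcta
Windows of 6 of the 10 genes were searched, namely Snai1, Zeb2, Twist1, Tgfb1, Tgfb2 and Mmp14, with a chromosome left out of the selection. Promoters of Snai2, Zeb1, Tgfb3 and Mmp2 were not searched, as no window of theirs was available in the set used. On both strands, the LEF/TCF letters CTTTGAT or ATCAAAG occurred in no window of these 6 genes and in 3.21% of 32536 windows of the same length over all genes. Only these letters were sought. Variant forms such as CTTTGTT, which stands in the printed Tgfb2 window, were not counted in these genes or over all windows. The E-box occurred in that of Snai1 and in 17.3% of all windows. The GC box occurred in windows of Tgfb1, Zeb2, Twist1 and Mmp14, 4 of the 6 genes of which only Tgfb1 passed the test described next, and in 33.0% of all windows. Zeb2 had several windows, not all with the box, so the count of genes and the share of windows are in unlike units. These matches are letters in a window and were not tested for binding, and their absence says nothing of binding elsewhere.

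All 3 TGF-β ligand genes lay higher with CHIR99021, and Tgfb1 and Tgfb2 passed the test, by 1.75-fold and 1.45-fold. Mmp2 fell 1.31-fold. None of the 5 EMT factors passed in limma, and 1 of them, Twist1, had an unadjusted p under 0.05. Of the 10 genes, 2 rose and 1 fell at the threshold of 0.05 on the adjusted p of limma's moderated fit, where 9.65% of all genes passed in either direction, 5.31% upward and 4.34% downward. The arrays of the treatments did not overlap for 5 of the 10 genes, against 25.1% of all genes. CHIR99021 lay wholly above XAV939 for 3 of them and wholly below for 2, against 14.1% and 11.0% of all genes. The median difference of the 10 genes was 0.12 on the log2 scale and that of all genes was 0.0066. Every difference given is the CHIR99021 mean less the XAV939 mean on the log2 scale, with the standard error (SE) of the fit. Genes said to rise or fall had a positive or negative difference between the treatments, not a change from untreated cells.

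Axin2, a feedback target of β-catenin that checks the treatments, stood at 7.41 to 7.54 on the CHIR99021 arrays and at 5.46 to 5.79 on the XAV939 arrays. Array medians lay between 5.67 and 5.71, and correlations across genes were 0.997 to 0.999 within a treatment and 0.994 to 0.995 between treatments. Markers of embryonic stem cells were well expressed in both treatments, Pou5f1 at 11.33 and 11.51 and Sox2 at 10.98 and 10.98 with CHIR99021 and XAV939.

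**Figure D1:**
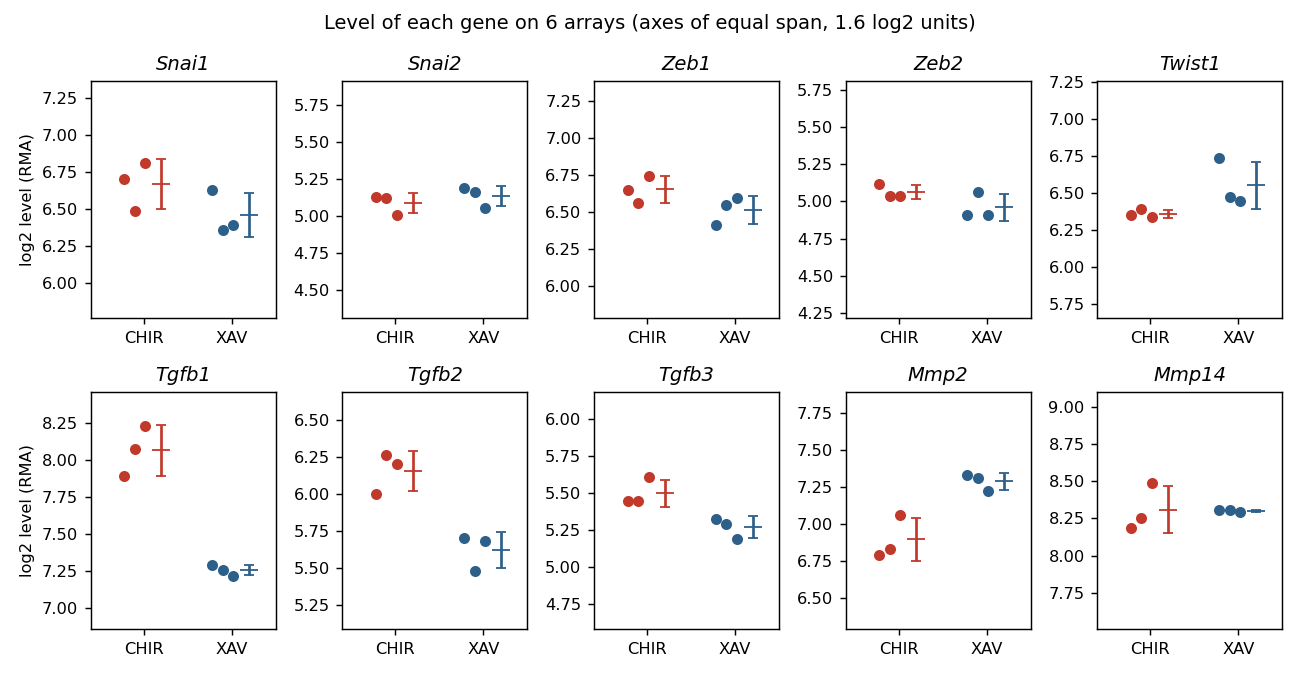
Log2 level (RMA) of each of the 10 genes on the 3 CHIR99021 arrays (red) and the 3 XAV939 arrays (blue), with mean and SD beside the points and vertical axes of equal span. Tgfb1 on the CHIR99021 arrays, at 7.89 to 8.23, lay above its XAV939 values of 7.22 to 7.29, while the Mmp14 values of the treatments overlapped.

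Tgfb1, the ligand most widely used to induce EMT in culture, had log2 levels of 7.89, 8.07 and 8.23 in CHIR99021 replicates 1 to 3 and of 7.29, 7.26 and 7.22 in XAV939 replicates 1 to 3. The treatments were separated by a gap of 0.60, wider than the range of 0.34 among the CHIR99021 arrays and of 0.068 among the XAV939 arrays. The CHIR99021 mean was 8.07 ± 0.17 and the XAV939 mean 7.26 ± 0.03 (SD, n = 3 each), which gives a difference of 0.81 ± 0.08 (SE, adjusted p = 9.55e-05) with a 95% interval of 0.63 to 0.98. The XAV939 arrays were close to each other, and most of the within-group spread was among the CHIR99021 arrays.

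Tgfb2, a ligand needed for heart cushion development, was measured at 6.0, 6.26 and 6.20 with CHIR99021 and at 5.70, 5.48 and 5.68 with XAV939. Every CHIR99021 array was above every XAV939 array, with a gap of 0.30 against ranges of 0.26 and 0.22 within the treatments. The means of 6.15 ± 0.14 and 5.62 ± 0.12 (SD, n = 3) differed by 0.53 ± 0.08 (SE, adjusted p = 0.00187), with a 95% interval of 0.35 to 0.72.

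Tgfb3, the third ligand, had levels of 5.44, 5.44 and 5.61 with CHIR99021 and of 5.33, 5.29 and 5.19 with XAV939. Its groups did not overlap either, with a gap of 0.12, but the difference of 0.23 ± 0.06 (SE) missed the threshold at an adjusted p of 0.0527, with a 95% interval of 0.085 to 0.37. It passed without XAV939 replicate 1, at an adjusted p of 0.0413, and stayed above the threshold without any other single array (up to 0.185). The mean level of Tgfb3, like those of Snai2 and Zeb2, was below the median of all probe sets, 5.68, a range in which RMA compresses differences.

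The shifts of the 3 ligand genes were set side by side within arrays. The shift of Tgfb1 exceeded that of Tgfb3 by 0.58 ± 0.06 and that of Tgfb2 by 0.27 ± 0.10, and the shift of Tgfb2 exceeded that of Tgfb3 by 0.31 ± 0.12 (SE, n = 3 arrays per treatment). Each had an exact two-sided permutation p of 0.1, the smallest that 3 against 3 arrays can give, and of 0.125 after adjustment over the 5 pairs compared. These pairs were chosen after the values were seen, and the design could not have called any of them.

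Mmp2, the gelatinase A gene, had log2 levels of 6.79, 6.84 and 7.06 with CHIR99021 and of 7.33, 7.31 and 7.23 with XAV939. All CHIR99021 arrays lay below all XAV939 arrays, with CHIR99021 replicate 3 the nearest to them and a gap of 0.16. The means were 6.90 ± 0.14 and 7.29 ± 0.06 (SD, n = 3), a difference of -0.39 ± 0.07 (SE, adjusted p = 0.00669) with a 95% interval of -0.56 to -0.23. The call held with any single array left out (adjusted p = 0.00161 to 0.0396) and was lost at 0.0536 when the model was fitted, and p-values adjusted, over all 34760 probe sets.

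Mmp14, the gene of the membrane protease that activates proMMP2, was measured at 8.18, 8.26 and 8.49 with CHIR99021 and at 8.31, 8.30 and 8.29 with XAV939. The CHIR99021 arrays lay on both sides of the XAV939 arrays. The difference was 0.0092 ± 0.0753 (SE, adjusted p = 0.973), and its 95% interval of -0.16 to 0.18 left room for a change of that size in either direction. Its sign depended on CHIR99021 replicate 3, without which it was -0.081. Within arrays, the shift of Mmp2 was -0.40 ± 0.03 relative to that of Mmp14 (SE, exact p = 0.1, 0.125 adjusted over the 5 pairs).

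**Figure D2:**
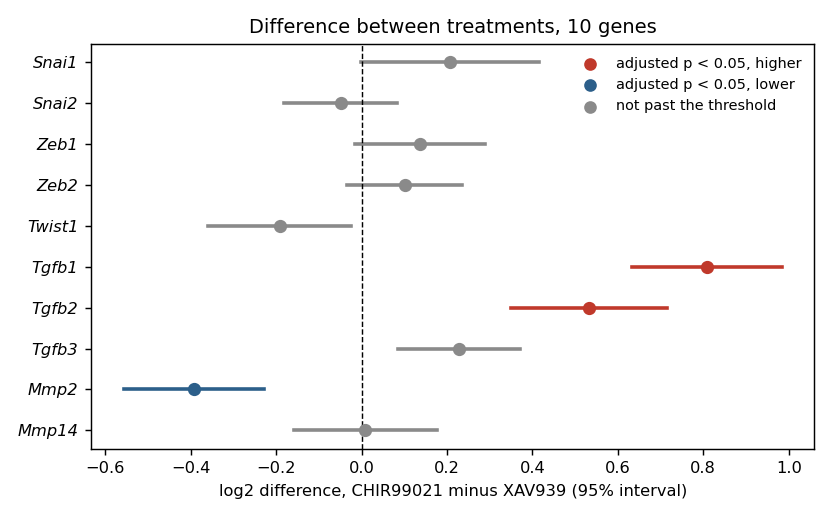
Log2 difference, CHIR99021 minus XAV939, of each of the 10 genes with its 95% interval from the fit, coloured by whether the gene passed an adjusted p of 0.05. Tgfb1 (0.81) and Tgfb2 (0.53) lie to the right of 0 and Mmp2 (-0.39) to the left, and the intervals of Tgfb3 and Twist1 leave out 0 although neither gene passed over all genes.

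Snai1, which encodes Snail, the EMT factor of the primitive streak, was at 6.71, 6.49 and 6.81 with CHIR99021 and at 6.63, 6.36 and 6.39 with XAV939. XAV939 replicate 1 reached above CHIR99021 replicate 2, so the treatments overlapped. The difference of 0.21 ± 0.09 (SE) did not pass (adjusted p = 0.247), with a 95% interval of -0.0015 to 0.42. It ranged from 0.13 without CHIR99021 replicate 3 to 0.30 without CHIR99021 replicate 2, and none of the single arrays left out brought it past the threshold (adjusted p = 0.0679 to 0.554).

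Snai2, the Slug gene of neural crest and mesoderm, had levels of 5.13, 5.12 and 5.01 with CHIR99021 and of 5.19, 5.16 and 5.05 with XAV939. The values interleaved, and the difference of -0.049 ± 0.060 (SE, adjusted p = 0.755) had a 95% interval of -0.18 to 0.084. For Snai1 against Snai2 the shifts differed by 0.26 ± 0.14 within arrays (SE, exact p = 0.2, also after adjustment over the 5 pairs), and the array ratios overlapped.

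The ZEB genes encode zinc finger homeodomain repressors of E-cadherin. Zeb1 was measured at 6.65, 6.56 and 6.75 with CHIR99021 and at 6.41, 6.55 and 6.59 with XAV939, with overlap. Its difference was 0.14 ± 0.07 (SE, adjusted p = 0.304; 95% interval -0.015 to 0.29). Zeb2, whose product also binds SMADs, was at 5.12, 5.04 and 5.04 with CHIR99021 and at 4.91, 5.07 and 4.91 with XAV939. XAV939 replicate 2 lay within the CHIR99021 range, and the difference was 0.10 ± 0.06 (SE, adjusted p = 0.421; 95% interval -0.033 to 0.24).

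Twist1, a helix-loop-helix factor of mesoderm and neural crest, had levels of 6.35, 6.39 and 6.34 with CHIR99021 and of 6.73, 6.47 and 6.45 with XAV939. It was lower on every CHIR99021 array, though by a gap of only 0.056, and XAV939 replicate 1 stood above the other arrays of its treatment. The difference of -0.19 ± 0.08 (SE) did not pass (adjusted p = 0.173), with a 95% interval of -0.36 to -0.024, and it was -0.10 without XAV939 replicate 1.

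**Figure D3:**
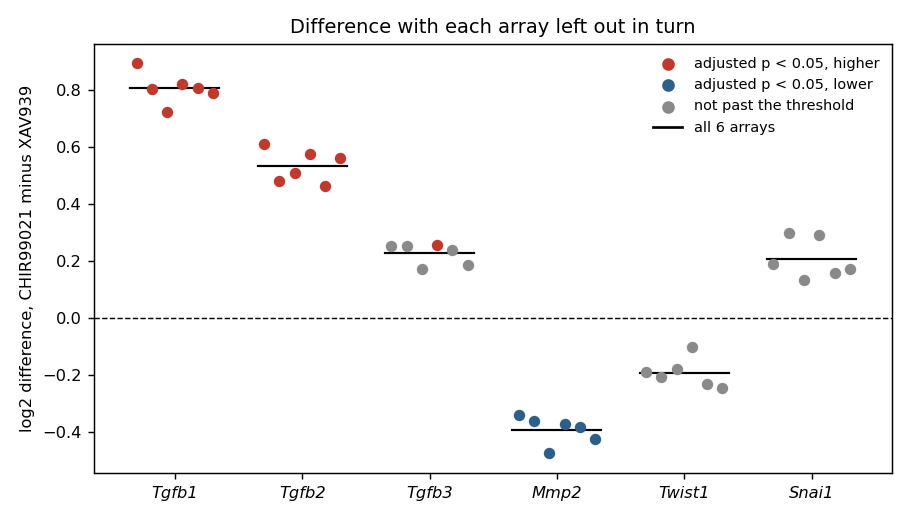
Log2 difference, CHIR99021 minus XAV939, of 6 of the genes with each of the 6 arrays left out in turn (points), against the value from all 6 arrays (lines). Points of Tgfb1 (0.73 to 0.89), Tgfb2 (0.46 to 0.61) and Mmp2 (-0.47 to -0.34) all pass the threshold, and a point of Tgfb3 passes without XAV939 replicate 1.

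Around these genes, 113 other genes of EMT, TGF-β signalling and metalloproteinases were measured, of 120 symbols listed. Among the symbols, Ctgf and Ccn2 name the same gene, which was measured as Ccn2. Of them 20 rose, 11 fell (7 without CHIR99021 replicate 2) and 82 did not pass, and their median difference was 0.035. Among 17 other EMT factors, 4 rose and none fell (6 and 0 at an unadjusted p under 0.05), with a median of 0.081. Klf8, a Krüppel-like repressor, rose by 0.50 ± 0.07, Twist2, the paralogue of Twist1, by 0.36 ± 0.06, Tcf4, a partner of helix-loop-helix factors, by 0.30 ± 0.06 and the chromatin protein gene Hmga2 by 0.26 ± 0.06. Snai3, the remaining Snail paralogue, differed by 0.051 ± 0.093 (adjusted p = 0.854). Leaving out XAV939 replicate 2, or CHIR99021 replicate 1 or 3, ended the call of Hmga2 (adjusted p = 0.0530 to 0.0640).

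Of 12 genes that maintain the epithelial state, 5 fell, 1 rose and 6 did not pass (median -0.14). Esrp1, an epithelial splicing factor, had levels of 8.66, 8.76 and 8.88 with CHIR99021 and of 9.50, 9.61 and 9.52 with XAV939, a difference of -0.78 ± 0.07. The adhesion molecule gene Epcam differed by -0.56 ± 0.05, the transcription factor gene Grhl2 by -0.40 ± 0.06 and Cdh1, the E-cadherin gene that EMT factors repress, by -0.26 ± 0.05 (adjusted p = 0.00721). Elf3, an epithelial ETS factor, rose by 0.45 ± 0.10, a call lost without XAV939 replicate 3 (adjusted p = 0.0623). Grhl1, named after its values were seen, fell by 0.23 and lost its call without any single array other than CHIR99021 replicate 3 (adjusted p = 0.0504 to 0.150). Genes of the microRNAs that target Zeb1 and Zeb2, the miR-200 family and miR-205, were all below the median level on these arrays and none of 5 passed or had an unadjusted p under 0.05 in limma, the smallest p being that of Mir205 (-0.13 ± 0.07, adjusted p = 0.363). Their probe sets read gene or precursor transcripts, not mature microRNAs.

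Among 18 genes of TGF-β latency and activation, 3 rose and none fell (4 and 3 at an unadjusted p under 0.05), with a median of -0.014, and 1 fell without CHIR99021 replicate 3. Bgn, the gene of the TGF-β-binding proteoglycan biglycan, rose by 0.46 ± 0.07, Itgav, the αv integrin chain of receptors that free TGF-β from its latent complex, by 0.29 ± 0.06, and Thbs1, encoding the activator thrombospondin 1, by 0.22 ± 0.06. The last call was lost without each single array other than CHIR99021 replicate 1 (adjusted p = 0.0649 to 0.163). Of 20 receptor and SMAD genes, 2 rose and 3 fell (median 0.057). Skil, which encodes the SMAD corepressor SnoN, had levels of 8.60, 8.72 and 8.55 with CHIR99021 and of 9.38, 9.59 and 9.59 with XAV939, a difference of -0.89 ± 0.07. Smad7, an inhibitory SMAD, rose by 0.37 ± 0.07 (lost at an adjusted p of 0.0564 in the fit over all probe sets), and Pmepa1, another feedback inhibitor, by 0.28 ± 0.08, while Trim33, a ubiquitin ligase acting on SMAD4, and the corepressor gene Tgif2 both fell by 0.29. Calls of the last 3 were lost without particular arrays: Pmepa1 on leaving out any single array except CHIR99021 replicate 2 (adjusted p = 0.0642 to 0.154), Trim33 without replicate 2 or 3 of either treatment (0.0646 to 0.104) and Tgif2 without replicate 1 or 2 of either (0.0606 to 0.110). The TGF-β receptor genes did not pass, with differences of 0.070 ± 0.064 for Tgfbr1, 0.14 ± 0.06 for Tgfbr2 and 0.24 ± 0.08 for Tgfbr3.

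Genes known to respond to TGF-β were split: 6 of 18 rose, 2 fell and 10 did not pass (median 0.075). The intermediate filament gene Vim rose by 1.11 ± 0.06, the tropomyosin gene Tpm1 by 0.44 ± 0.06, the N-cadherin gene Cdh2 by 0.95 ± 0.06 and the fibronectin gene Fn1 by 0.97 ± 0.05. Those that fell were Skil, which a rise in TGF-β signalling is known to induce, and Ccn2, encoding connective tissue growth factor, at -0.34 ± 0.06 (adjusted p = 0.00623). Tgfbi, named for its induction by TGF-β, differed by 0.078 ± 0.052 (adjusted p = 0.484). The response list shares Skil, Smad7 and Tgif1 with the receptor list and Ltbp2 with the latency list.

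**Figure D4:**
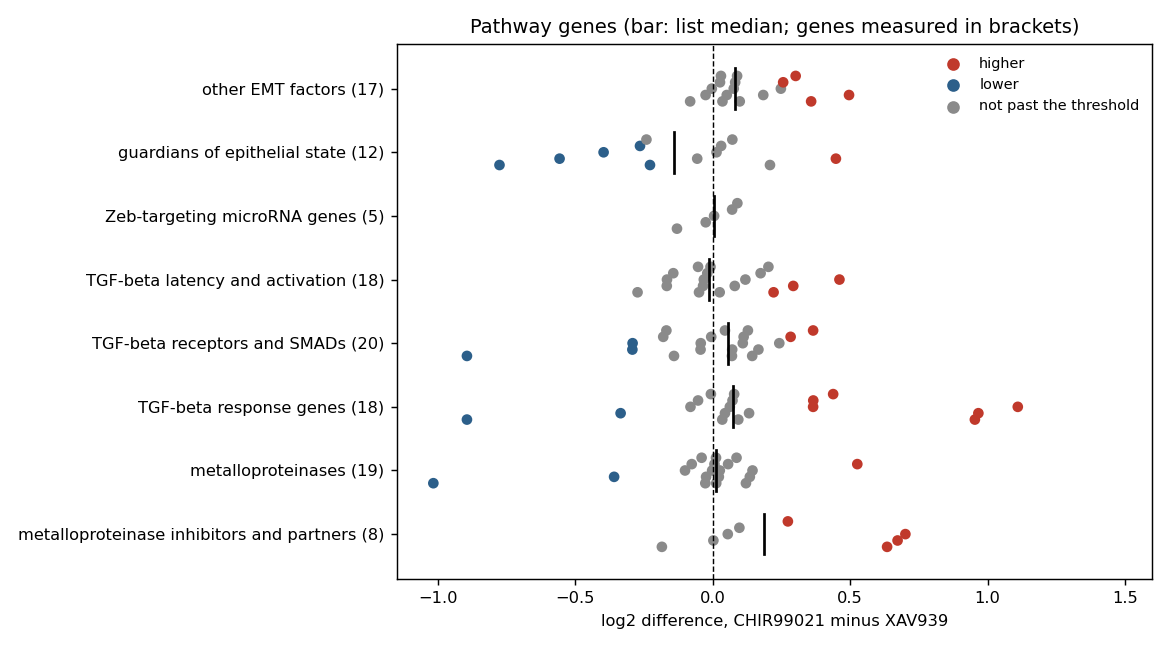
Log2 difference, CHIR99021 minus XAV939, of each measured gene in 8 lists around the 10 genes (number measured in brackets), coloured by whether the gene passed an adjusted p of 0.05, with the list median as a bar. Medians lie between -0.14 for genes of the epithelial state and 0.19 for metalloproteinase inhibitors and partners, and the widest spread, -0.89 to 1.11, is that of TGF-β response genes.

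Of 19 other metalloproteinase genes, 1 rose, 2 fell and 16 did not pass, and 13 of the 19 had a mean level under the probe-set median (list median 0.012). Mmp25, a membrane-anchored leukocyte protease, had levels of 6.35, 6.28 and 6.30 with CHIR99021 and of 7.31, 7.31 and 7.36 with XAV939, and so differed by -1.02 ± 0.05 (2.02-fold lower). Mmp9, the gelatinase B gene, went the opposite way from Mmp2, with levels of 6.53, 6.84 and 6.82 with CHIR99021 against 6.23, 6.19 and 6.18 with XAV939, a rise of 0.53 ± 0.08 (adjusted p = 0.00165). Mmp11, stromelysin 3, fell by 0.36, a call lost without replicate 1 of either treatment, CHIR99021 replicate 2 or XAV939 replicate 3 (adjusted p = 0.0582 to 0.101).

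Of 8 inhibitors and partners of these proteases, 4 rose and the others did not pass (median 0.19; 4 higher and 1 lower at an unadjusted p under 0.05). Timp2, which both inhibits MMP2 and assists its activation by MMP14, had levels of 6.08, 6.28 and 6.38 with CHIR99021 and of 5.42, 5.58 and 5.62 with XAV939, a rise of 0.70 ± 0.08 (1.63-fold, adjusted p = 3.33e-04). Timp3 rose by 0.67 ± 0.10, Timp1 by 0.63 ± 0.07 and Sparc, a matricellular protein gene, by 0.27 ± 0.06. Reck, a membrane inhibitor of MMP2 and MMP14, differed by -0.19 ± 0.07 (adjusted p = 0.162), and Timp4 by 0.0021 ± 0.0531.

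Fibroblasts express many of the 10 genes, and feeders may be present in the RNA. Of 23 measured fibroblast markers, 8 rose and none fell (8 and 0 at an unadjusted p under 0.05), with Col1a1 (1.05 ± 0.05), Fstl1 (0.95 ± 0.06), Pdgfrb (0.59 ± 0.05) and Tagln (0.67 ± 0.07) the members with the smallest p. Their mean log2 level was 6.22 to 6.24 on the CHIR99021 arrays and 5.96 to 6.03 on the XAV939 arrays, so it moved in the direction of Tgfb1 and Tgfb2 and against that of Mmp2. The other 15 markers did not pass, and 11 of the 23 had a mean level under the probe-set median, Dcn, Lum, Postn and Dpt among them. Col3a1 (0.096 ± 0.076), Col6a1 (0.0055 ± 0.0882), Col6a2 (0.14 ± 0.09) and Thy1 (-0.079 ± 0.082) lay above that median and did not pass either. Twist2, 1 of the 8 markers that rose, and some that did not pass are also in the lists above, so the counts are not separate. The part of feeder cells in these differences was not tested. In bulk RNA, fewer cells of a type and less RNA per cell cannot be told apart.

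Of 9 measured markers of nascent mesoderm, 5 rose and 4 did not pass, and their mean level was 6.10 to 6.26 with CHIR99021 and 5.62 to 5.76 with XAV939. The list also held T, the Brachyury gene, which had no single-gene value under that symbol, and other symbols for it were not looked up. Mixl1 rose 2.82-fold, Eomes by 1.18 ± 0.08, Wnt3 by 0.86 ± 0.10, Evx1 by 0.44 ± 0.08 and Msgn1 by 0.30 ± 0.06, while Mesp1 differed by 0.064 ± 0.055 (adjusted p = 0.616). Of 10 primitive endoderm markers, none rose (1 at an unadjusted p under 0.05, and 1 without XAV939 replicate 1), 9 did not pass and Dab2 fell by 0.35, a call lost without replicate 1 or 2 of either treatment (adjusted p = 0.0673 to 0.126). The other of the 2 Dab2 probe sets gave -0.087. The mean level of that list overlapped between treatments, at 5.85 to 5.92 and 5.84 to 5.96. Embryonic stem cell markers moved both ways, with Esrrb (0.60 ± 0.06), Nanog (0.49 ± 0.05) and Zfp42 (0.25 ± 0.06) higher, Tdgf1 (-0.63 ± 0.07), Utf1 (-0.67 ± 0.09) and Fgf4 (-0.38 ± 0.06) lower and 4 of 10 not past the threshold. Leaving out XAV939 replicate 2, or CHIR99021 replicate 1 or 3, also ended the call of Zfp42 (adjusted p = 0.0690 to 0.0782). The mean level of the list was 10.50 to 10.57 with CHIR99021 and 10.58 to 10.61 with XAV939. The part of these cell states in the differences of the 10 genes was not tested.

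The genes whose profiles over the 6 arrays were nearest to each called gene were found by the root mean square distance between centred log2 values. For Tgfb1 they were Klf4, a naive pluripotency factor (distance 0.040), the phosphatase gene Dusp4 (0.052), Alpl, the alkaline phosphatase gene of stem cells (0.055), and the skeletal actin gene Acta1 (0.073). For Tgfb2 they were Fam53b (0.039), the mitochondrial carbonic anhydrase gene Car5b (0.055), the sulfotransferase gene Chst11 (0.058) and Gcat (0.060). Those nearest to Mmp2 were Rap1gds1, a small GTPase regulator (0.024), Calcoco2, an autophagy receptor (0.034), Pias3 (0.035) and Camsap3 (0.038). The distances describe 6 arrays in 2 treatments and rest largely on the size of the difference between them.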

How the data were processed

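The samples were 6 arrays in 2 groups of 3, grouped by their titles, with RNA isolated by TRIzol and column purification, per the labels' protocols. Values in the deposited table are log2 levels of probe sets, which the authors computed with RMA, per the submitters' processing notes. RMA quantile-normalises arrays, so values compare between arrays for a probe set and not between genes. The sources used here give neither its version nor a genome build, and no scanner files, detection calls or scan dates were used here. The number of arrays limits the precision.

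Of 34760 probe sets, 21640 named 1 gene, 1321 several (not named) and 11799 none. Each gene took the single-gene probe set with the highest mean, giving 19937 genes. Each of the 10 genes had 1 probe set. The contrast was fitted with limma 3.58.1 in R 4.3.3 (lmFit, eBayes, 4 residual degrees of freedom), with Benjamini-Hochberg adjustment over all genes and a threshold of 0.05. The procedure was tested on simulated data. Plots used matplotlib 3.10.9.

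The 10 genes and the lists around them were chosen with earlier results of these data known. Text names all 10 genes; from each list all genes past the threshold where 5 or fewer passed, otherwise the 4 with the smallest p in each direction, or 1 gene, that of smallest p, where no gene passed; Axin2; and the 4 nearest profiles of each called gene, predicted genes left out. List genes outside this rule (Snai3, the TGF-β receptor genes, Tgfbi, Reck, Timp4, Mesp1, Dcn, Lum, Postn, Dpt, Col3a1, Col6a1, Col6a2, Thy1, Pou5f1, Sox2 and Grhl1) were chosen after their values were seen. There were 15 alternatives.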

Additional observations from a re-analysis of the deposited data

How the results depend on the processing

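Across 15 alternatives, Tgfb1 (0.73 to 0.89, adjusted p = 1.35e-05 to 0.00491) and Tgfb2 (0.46 to 0.61, adjusted p = 4.28e-04 to 0.0279) kept their direction and their call. Mmp2 kept its direction (-0.47 to -0.34) and lost its call only in the fit and adjustment over all probe sets, where 0 of the 10 genes were called lower. Tgfb3 was called without XAV939 replicate 1 and with array weights (adjusted p = 0.0255). Mmp14 turned sign without CHIR99021 replicate 3 (-0.081 to 0.073 over single arrays left out), without both that array and XAV939 replicate 1 (-0.078) and with array weights (-0.028), and Snai2 without both of those arrays (0.017). Neither was called in any alternative, and the cause was not tested. Over single arrays left out, 2 to 3 of the 10 genes were higher, 1 was lower, 17 to 22 pathway genes were higher, 7 (without CHIR99021 replicate 2) to 12 were lower, and 1254 (without CHIR99021 replicate 2) to 2247 of all genes were called. Pathway genes called lower numbered 7 in the fit and adjustment over all probe sets, which also changed the moderated variances, and the cause was not tested. They numbered 7 at the stricter threshold of 0.01, where 1118 of all genes were called. Of 360 counts per list under the alternatives, 43 moved, either by over 1.5 times or to or from 0. The replicate numbers did not pair the arrays (correlations of deviations -0.096, 0.060 and -0.14, with 0 of 6 arrays closest to their own number), and a fit with the replicate block called the same numbers of the 10 genes, 2 higher and 1 lower, with 19 pathway genes higher and 8 lower and 1578 genes in all.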
